A study of Mus musculus with 10 samples.

Results

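Macrophages of the fetal gonad were followed here through 10 genes, chosen by symbol from the 24470 entries of the count table: the growth factor receptor gene Csf1r, the complement genes C1qa, C1qb and C1qc, the chemokine receptor gene Cx3cr1, the surface protein genes Adgre1 and Mrc1, the Fc receptor gene Fcgr1, the signalling adaptor gene Tyrobp and the lysozyme gene Lyz2. All 10 symbols were found, each once, and each of the 10 genes had counts in all 5 vehicle libraries. The testes came from C57BL/6 mouse embryos at E12.5. From each of 5 embryos, 1 gonad with its mesonephros was cultured for 48 h in medium with 75 µM GPI (CP 316819), an inhibitor of the glycogen phosphorylases that release glucose units from glycogen, and the contralateral gonad was cultured with the DMSO vehicle. The gonads were separated from the mesonephros after culture and RNA of each whole gonad was sequenced, which gave 5 vehicle and 5 GPI libraries paired by mouse. The comparison asks how RNA levels in the testis differ when glycogen breakdown is inhibited. Library totals ran from 10203679 to 15590223 counts with vehicle and from 11025409 to 15635322 with GPI. Levels below are normalized counts, meaning a gene's count divided by the TMM-scaled size of its library and multiplied by the mean scaled size of all 10 libraries, and values of single libraries are given in the order of mouse 1 to mouse 5.

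Tissue macrophages of the mouse fetus are seeded from the yolk sac and later from fetal liver monocytes. They depend on the receptor CSF1R, which binds the growth factors CSF1 and IL34. They take up dying cells, make the C1q subunits of the classical complement pathway and carry immunoglobulin and lectin receptors that signal through adaptor proteins with tyrosine motifs. In the fetal testis they lie close to growing vessels, take part in vascular remodelling and clear misplaced cells. A bulk library of a whole gonad holds RNA of all its cells, so that fewer macrophages and less RNA of these genes per macrophage cannot be told apart.

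With GPI, 8 of the 10 genes were called lower. Of the 9 genes with enough counts to be tested, Csf1r, C1qa, C1qb, C1qc, Cx3cr1, Mrc1, Tyrobp and Lyz2 were called lower at an FDR of 0.05 (edgeR's quasi-likelihood test, Benjamini-Hochberg adjusted), Adgre1 was not called, and Fcgr1 was too low to be tested. Each of the 8 was lower in 5 of 5 mice, as were 15.1% of all tested genes. Across all 13941 tested genes, 1654 (11.9%) were called lower and 1544 (11.1%) higher; without mouse 3 or without mouse 4, 969 and 1024 genes were called higher. The 5 GPI libraries lay below the 5 vehicle libraries without overlap for the same 8 genes, and for 1258 (9.02%) of all tested genes. The median log2 fold change of the 9 tested macrophage genes was -1.91, against 0.02 over all tested genes. None of the 9 was called higher by edgeR, by DESeq2 or by limma-voom, and 0 were higher at an unadjusted p under 0.05. Low counts entered these numbers. GPI libraries held 0 to 3 counts of C1qa, 2 to 14 of C1qc and 4 to 14 of Cx3cr1. These genes had enough counts to be tested through their vehicle libraries. Among the 6 genes with at least 10 counts in every library, 5 were called lower and the median was -1.54.

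Summed over the 10 genes, vehicle testes held 1086, 875, 875, 809 and 852 normalized counts and GPI testes 428, 379, 402, 237 and 214. The groups did not overlap, and mouse 1 had the highest value with either treatment. The means were 899 ± 108 and 332 ± 99.2 (SD, n = 5 each), so that the GPI mean was 36.9% of the vehicle mean. Within a mouse, the GPI sum was 39.4%, 43.3%, 46.0%, 29.3% and 25.1% of the vehicle sum. The lowest remaining shares were those of mice 4 and 5.

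**Figure D1:**
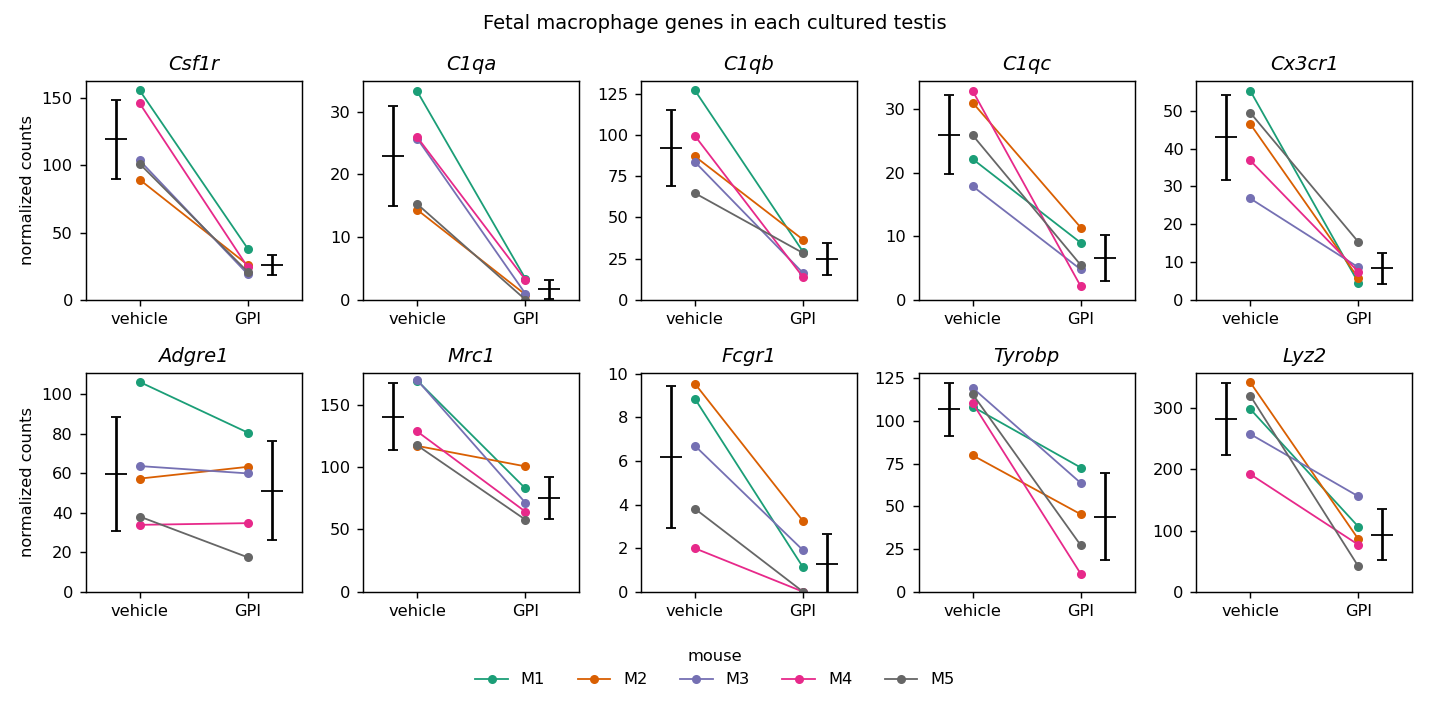
Normalized counts (vertical axes, each starting at 0) of the 10 fetal macrophage genes in vehicle and GPI testes. Colored points are libraries joined by mouse, and black bars are means ± SD over 5 libraries; the 5 GPI points of Csf1r lie between 19 and 38.1, below all 5 vehicle points, whereas those of Adgre1 overlap with vehicle.

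Csf1r (Entrez gene 12978) encodes the receptor tyrosine kinase on which macrophage survival depends. Its level was 156, 89.5, 104, 146 and 101 normalized counts in the vehicle testes and 38.1, 25.9, 19, 24.2 and 20.7 in the GPI testes. The lowest vehicle testis, that of mouse 2, was still above every GPI testis. Csf1r fell by 2.22 ± 0.21 (SE) on the log2 scale (95% interval -2.68 to -1.76; lower in 5 of 5 mice; adjusted p = 5.35e-06, edgeR's quasi-likelihood test, Benjamini-Hochberg adjusted). Its ratio in single mice varied little, from -2.50 in mouse 4 to -1.71 in mouse 2.

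The genes of the ligands did not pass the test. Csf1, which encodes the growth factor CSF1, had 135, 100.2, 93.8, 85.7 and 120.4 normalized counts with vehicle and 122, 81.9, 91.3, 65.2 and 107 with GPI, and the groups overlapped. Its log2 fold change was -0.21 ± 0.16, adjusted p = 0.417 (edgeR's quasi-likelihood test, Benjamini-Hochberg adjusted), with GPI lower in 5 of 5 mice. Il34, the gene of the other CSF1R ligand, was scarce, with 31, 9, 21, 6 and 23 counts in the vehicle libraries and 11, 10, 9, 4 and 1 in the GPI libraries. Its log2 fold change was -1.39 ± 0.50, adjusted p = 0.0637 (edgeR's quasi-likelihood test, Benjamini-Hochberg adjusted), again lower in 5 of 5 mice after scaling. Cx3cl1, the gene of the membrane-bound chemokine that CX3CR1 binds, had a log2 fold change of 0.24 ± 0.36. Thus 0 of these 3 genes were called by edgeR, DESeq2 or limma-voom, and 1, Il34, had an unadjusted p under 0.05. Over all 13941 tested genes, 3198 were called by edgeR and 4742 had an unadjusted p under 0.05. With 3 genes, these counts do not set the ligands apart from all tested genes.

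C1qa, C1qb and C1qc encode the A, B and C chains that together form C1q, the recognition protein of the classical complement pathway, which macrophages secrete. The genes (Entrez 12259, 12260 and 12262) are neighbors on the minus strand of chromosome 4 in GRCm38, at chr4:136895916-136898844, chr4:136880145-136886177 and chr4:136889802-136892914, within 18700 bases. RefSeq promoter windows of GRCm38.p6 were matched for 6 of the 10 macrophage genes (C1qb, C1qc, Cx3cr1, Mrc1, Fcgr1 and Lyz2). The sequences shown are those of 4 genes called lower, the neighbors C1qb and C1qc, Mrc1 with the most copies of a PU.1 core and Cx3cr1 with none, and are the 250 bases before the RefSeq start, 5′ to 3′ on the strand of the gene. Capitals mark the letters GAGGAA, the core of sites bound by the myeloid factor PU.1, or their reverse complement TTCCTC, extended to the 8 letters GAGGAAGT or ACTTCCTC where these are present. The C1qb sequence lies at chr4:136886201-136886450 and the C1qc sequence at chr4:136892915-136893164, both on the minus strand. The RefSeq start of C1qb lies 23 bases outside the gene's end in the count table, and offsets count from the RefSeq start.
C1qb: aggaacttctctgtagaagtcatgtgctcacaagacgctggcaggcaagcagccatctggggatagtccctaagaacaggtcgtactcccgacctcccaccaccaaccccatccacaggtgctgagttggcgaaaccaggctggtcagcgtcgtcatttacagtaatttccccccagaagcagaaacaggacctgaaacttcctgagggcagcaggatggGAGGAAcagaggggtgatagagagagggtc
C1qc: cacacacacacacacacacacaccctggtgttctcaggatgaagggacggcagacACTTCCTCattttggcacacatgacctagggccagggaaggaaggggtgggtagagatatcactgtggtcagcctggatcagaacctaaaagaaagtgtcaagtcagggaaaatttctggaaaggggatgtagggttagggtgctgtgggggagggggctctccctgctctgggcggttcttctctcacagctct
The 6 letters begin at -30 from the RefSeq start of C1qb on the strand of the gene, and the 8 letters at -195 from the C1qc start on the opposite strand. Over windows from 250 bases before to 50 after the start, and on both strands, the 6 letters were present in 4 of the 6 macrophage genes (C1qb, C1qc, Mrc1 and Fcgr1), not in Cx3cr1 or Lyz2, which were both called lower, and in 28.3% of 32851 RefSeq windows. The 8 letters, which contain the 6, were present in 1 of 6 and in 3.2% of windows. A match of letters is no measure of binding.

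Per kilobase of exon, C1qb was the most abundant of the chains with vehicle. It had 127, 87.1, 83.7, 99.6 and 64.7 normalized counts with vehicle and 29.1, 36.5, 16.2, 13.7 and 28.3 with GPI. The groups did not overlap, and the GPI testes of mice 3 and 4 were the lowest. C1qc was present at 22.1, 31.0, 17.9, 32.9 and 25.9 normalized counts with vehicle and 8.95, 11.4, 4.76, 2.10 and 5.45 with GPI. Here too the groups were separate, with mouse 2 the highest of the GPI testes. C1qa had 30, 12, 23, 26 and 20 counts in the vehicle libraries and 3, 1, 1, 3 and 0 in the GPI libraries, where mouse 5 had none. A count of 0 in that library allows up to 3 counts, or 3.27 normalized counts, and this limit covers counting error only. Summed over libraries, C1qa fell from 111 counts to 8, which after scaling is 7.08% of vehicle, with an exact 95% interval for counting error of 2.98% to 14.4%.

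The fitted log2 fold change was -3.78 ± 0.56, adjusted p = 0.000221 for C1qa, -1.91 ± 0.28, adjusted p = 0.000218 for C1qb and -2.02 ± 0.45, adjusted p = 0.00512 for C1qc (edgeR's quasi-likelihood test, Benjamini-Hochberg adjusted), each lower in 5 of 5 mice. The 95% intervals were -4.98 to -2.58, -2.52 to -1.31 and -3.00 to -1.04. The size of the C1qa estimate rests on GPI libraries with 0 to 3 counts. Ratios of the chains were compared within mice, with a prior count of 2 added. This prior draws the low C1qa ratios toward 0, and differences from C1qa are then smaller than those between the fitted changes. The C1qa ratio was lower than that of C1qb in 4 of 5 mice, with a mean difference of -0.94 ± 0.83 (SD, n = 5) on the log2 scale (p = 0.125, exact two-sided permutation test of signs). Against C1qc the difference was -1.01 ± 0.95 (n = 5, exact permutation p = 0.125), and between C1qb and C1qc it was -0.07 ± 0.71 (n = 5, exact permutation p = 0.875). None of the 3 differences passed a p of 0.05, and with 5 pairs this test cannot give a p below 0.0625.

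Around C1q, 8 of 10 further complement genes were tested and 4 were called lower, where 11.9% of all tested genes were. The median was -0.66 against 0.02 over all tested genes. The number called lower was 2 without mouse 4 or without mouse 5, as with at least 10 counts in every library. C1ra and C1s1, which encode the proteases that C1q activates, were not called, with log2 fold changes of 0.39 ± 0.18 and -0.68 ± 0.37. C3, the central component of the cascade, had 131, 224, 165, 131 and 168 normalized counts with vehicle and 154, 10.5, 18.1, 7.37 and 19.6 with GPI. The GPI testis of mouse 1 was within the vehicle range and the other 4 were far below it. C3 fell by 2.71 ± 0.53 on the log2 scale (lower in 4 of 5 mice, adjusted p = 0.00205, edgeR's quasi-likelihood test, Benjamini-Hochberg adjusted). Also called lower were Serping1, which encodes an inhibitor of the classical pathway (-0.36 ± 0.12 on the log2 scale), C5ar1, a receptor for the fragment C5a (-1.78 ± 0.53), and Cd93. The call of Serping1 was lost without mouse 2, 3, 4 or 5, and that of C5ar1 without mouse 2, 4 or 5 and without the replicate block; without mouse 1 C5ar1 was not tested. Cd93, first described as a C1q receptor and made by endothelial as well as myeloid cells, fell from 4750.4 ± 453 to 562 ± 175 normalized counts (SD, n = 5 each), by 3.12 ± 0.17 on the log2 scale (lower in 5 of 5 mice, adjusted p = 3.73e-08, edgeR's quasi-likelihood test, Benjamini-Hochberg adjusted). C3ar1, a receptor for C3a, had 188, 167, 145, 191 and 119.6 normalized counts with vehicle and 204, 201, 70.4, 60.0 and 57.8 with GPI. It was not called by edgeR or limma-voom and was called lower by DESeq2, without the filter and without mouse 1 or 2; with GPI, mice 1 and 2 lay above the vehicle range and mice 3 to 5 below it.

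Tyrobp (Entrez 22177, chr7:30413788-30417582) encodes DAP12, a membrane adaptor with an immunoreceptor tyrosine-based activation motif (ITAM) that many myeloid receptors share. Its level was 108, 79.9, 119, 111 and 116 normalized counts with vehicle and 72.8, 45.4, 63.7, 10.5 and 27.2 with GPI. In the GPI testis of mouse 4 little was left, whereas mouse 1 came close to the lowest vehicle testis without reaching it. The log2 fold change was -1.41 ± 0.33, adjusted p = 0.00638 (edgeR's quasi-likelihood test, Benjamini-Hochberg adjusted; lower in 5 of 5 mice; 95% interval -2.12 to -0.70). Fcgr1 (Entrez 14129, chr3:96282909-96293969) encodes the high-affinity receptor for IgG. It had 8, 8, 6, 2 and 5 counts in the vehicle libraries and 1, 4, 2, 0 and 0 in the GPI libraries, lower with GPI in 5 of 5 mice. These counts were below the filter, and the ranges overlapped at the low vehicle count of mouse 4. In a fit without the filter its log2 fold change was -2.40 ± 1.15 (adjusted p = 0.176, edgeR's quasi-likelihood test, Benjamini-Hochberg adjusted), and it was not called. The sum went from 29 to 7 counts, 23.7% of vehicle after scaling, with an exact 95% interval for counting error of 8.76% to 55.3%.

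Other Fc receptors, ITAM adaptors and the kinases and phosphatases around them numbered 17. Of these 10 were tested and 6 were called lower, where 11.9% of all tested genes were, with a median of -1.39 against 0.02. With at least 10 counts in every library 2 were called, Lyn and Fcer1g, since the other 4 were then not tested. Fcer1g, the gene of the gamma chain that carries FCGR1 to the surface, fell from 55.4 ± 21.9 to 25.2 ± 8.14 normalized counts (SD, n = 5 each; log2 fold change -1.11 ± 0.31, adjusted p = 0.0175, edgeR's quasi-likelihood test, Benjamini-Hochberg adjusted; lower in 5 of 5 mice), and the groups overlapped; this call was lost without mouse 1, 2 or 4. Lyn, a Src family kinase that phosphorylates such motifs, had 243, 153, 240.0, 225 and 234 normalized counts with vehicle and 56.0, 73.0, 93.2, 43.1 and 81.7 with GPI, without overlap. Clec7a, the gene of the beta-glucan receptor Dectin-1, was reduced to a mean of 2.67 normalized counts from 41.3. The log2 fold changes were -1.67 ± 0.19, adjusted p = 3.00e-05 for Lyn and -3.72 ± 0.57, adjusted p = 0.000319 for Clec7a (edgeR's quasi-likelihood test, Benjamini-Hochberg adjusted; each lower in 5 of 5 mice). Fcgr3, Inpp5d and Plcg2, which encode a low-affinity IgG receptor, a lipid phosphatase and a phospholipase, were called lower as well (-2.23 ± 0.58, -2.62 ± 0.42 and -2.26 ± 0.40), Fcgr3 not without mouse 4 or 5. Syk, the kinase that binds phosphorylated ITAMs and is also made outside the blood lineage, was not called (0.07 ± 0.17), nor was Sirpa (-0.13 ± 0.11), the most abundant gene of this group per kilobase. Fcgr2b, Fcgr4 and Trem2 were among the 7 genes too low to test.

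Cx3cr1 (Entrez 13051, chr9:120048683-120068296) encodes the fractalkine receptor of monocytes, microglia and many fetal macrophages. The 250 bases before its start, at chr9:120068297-120068546 on the minus strand, hold neither motif.
Cx3cr1: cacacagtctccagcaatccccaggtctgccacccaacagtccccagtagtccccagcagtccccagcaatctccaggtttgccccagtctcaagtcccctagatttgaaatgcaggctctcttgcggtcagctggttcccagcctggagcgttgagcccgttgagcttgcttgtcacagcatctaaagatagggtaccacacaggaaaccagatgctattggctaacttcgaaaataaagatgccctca
The gene had 55.3, 46.5, 26.8, 36.9 and 49.5 normalized counts with vehicle and 4.48, 5.68, 8.56, 7.37 and 15.3 with GPI. All GPI testes were below the lowest vehicle testis, that of mouse 3, and the GPI level was highest in mouse 5. The log2 fold change was -2.38 ± 0.39, adjusted p = 0.000522 (edgeR's quasi-likelihood test, Benjamini-Hochberg adjusted; lower in 5 of 5 mice; 95% interval -3.23 to -1.54). The ratio was lowest in mouse 1, at -3.15 on the log2 scale.

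Mrc1 and Adgre1 encode surface proteins by which resident macrophages are often recognized. Mrc1 (Entrez 17533, chr2:14229414-14332023, plus strand) encodes the mannose receptor CD206. The 250 bases before its start, at chr2:14229164-14229413, hold the 6 letters 3 times on the opposite strand, at -180, -167 and -35. Mir511, a microRNA gene within Mrc1, had 0 counts.
Mrc1: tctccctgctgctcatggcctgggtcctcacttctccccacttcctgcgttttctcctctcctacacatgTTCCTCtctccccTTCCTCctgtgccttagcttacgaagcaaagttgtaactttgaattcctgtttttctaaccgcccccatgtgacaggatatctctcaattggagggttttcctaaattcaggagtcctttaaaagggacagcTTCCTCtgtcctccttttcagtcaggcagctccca
Its level was 169, 117, 169.7, 128 and 117 normalized counts with vehicle and 82.8, 101, 71.3, 64.2 and 57.8 with GPI. The groups came close, since the GPI testis of mouse 2 was not far below the vehicle testes of mice 2 and 5. The log2 fold change was -0.90 ± 0.19, adjusted p = 0.00280 (edgeR's quasi-likelihood test, Benjamini-Hochberg adjusted; lower in 5 of 5 mice; 95% interval -1.30 to -0.50).

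Adgre1 (Entrez 13733, chr17:57358686-57483529) encodes F4/80, an adhesion G protein-coupled receptor and classical marker of mouse macrophages. It had 106, 57.3, 63.6, 33.9 and 38.1 normalized counts with vehicle and 80.6, 63.2, 59.9, 34.7 and 17.4 with GPI. The ranges overlapped, and mouse 1 was the highest in both groups. The log2 fold change was -0.26 ± 0.25, adjusted p = 0.512 (edgeR's quasi-likelihood test, Benjamini-Hochberg adjusted; lower in 3 of 5 mice), with a 95% interval of -0.79 to 0.27. This interval does not reach the point estimate of any other tested macrophage gene, the nearest being Mrc1, and it overlaps with the intervals of Mrc1 and Tyrobp. In single mice the Adgre1 log2 ratios were -0.39, 0.14, -0.08, 0.03 and -1.04. They were the highest of the 9 tested genes in mice 1 to 4, and in mouse 5 Mrc1 was higher. As a share of the summed counts of the 10 genes, Adgre1 went from 6.45% ± 2.28 with vehicle to 14.7% ± 4.0 with GPI (SD, n = 5 each), higher in 5 of 5 mice although the ranges overlapped. These differences between genes were not tested.

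**Figure D2:**
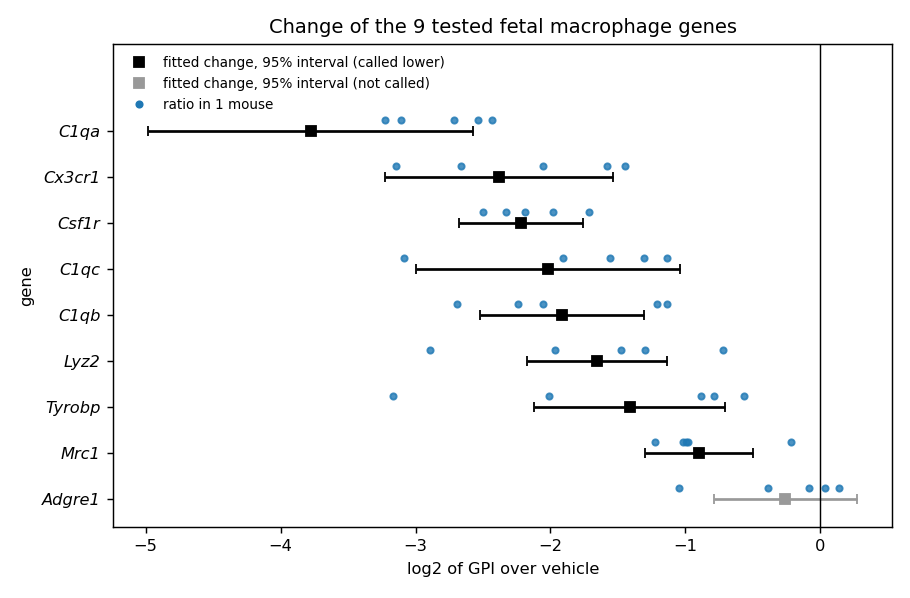
Log2 of GPI over vehicle (horizontal axis) for the 9 tested fetal macrophage genes (vertical axis). Squares are fitted changes with 95% intervals and blue points are ratios in 1 mouse with a prior count of 2, which draws low genes such as C1qa toward 0; Adgre1, at -0.26, is the gene whose interval includes 0.

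Lyz2 (Entrez 17105, chr10:117277541-117282272) encodes the lysozyme of macrophages, monocytes and neutrophils. It had 299, 342, 258, 192 and 321 normalized counts with vehicle and 106, 85.9, 156, 76.8 and 41.4 with GPI. The GPI testis of mouse 3 was the highest of its group and that of mouse 5 the lowest, and no GPI testis reached the lowest vehicle testis, that of mouse 4. The log2 fold change was -1.65 ± 0.24, adjusted p = 0.000191 (edgeR's quasi-likelihood test, Benjamini-Hochberg adjusted; lower in 5 of 5 mice; 95% interval -2.17 to -1.14). Reads of Lyz2 and its near-identical neighbor Lyz1 can be hard to separate, and Lyz1 was given 1 count over all 10 libraries.

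Lyz2 and Tyrobp are also made by neutrophils, whose markers were lower with GPI as well. Of 11 neutrophil genes S100a8, S100a9, Ngp and Ltf were tested and called lower, where 11.9% of all tested genes were. These 4 genes passed the filter through their vehicle counts, and with at least 10 counts in every library 0 of the 11 were tested. The summed level of the 11 genes was 653, 836, 1008, 275 and 1754 normalized counts with vehicle and 29.1, 171, 53.3, 11.6 and 27.2 with GPI. Mouse 5 had the most with vehicle and mouse 2 by far the most with GPI. The most abundant gene per kilobase, S100a9, encodes a calcium-binding protein stored in neutrophils and fell from 630.5 ± 418 to 31.4 ± 36.7 normalized counts per kilobase (SD, n = 5 each). The log2 fold changes were -5.01 ± 0.52, adjusted p = 9.88e-06 for S100a8 and -4.42 ± 0.39, adjusted p = 2.70e-06 for S100a9 (edgeR's quasi-likelihood test, Benjamini-Hochberg adjusted; each lower in 5 of 5 mice). Elane, the gene of neutrophil elastase, had at most 4 counts in a vehicle library and 0 in every GPI library. The part of neutrophils in the change of Lyz2 and Tyrobp was not tested.

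Per kilobase of exon, the 10 genes spread widely in vehicle testes. Lyz2 (215 ± 45.1 normalized counts per kilobase, SD, n = 5 for all values here) and Tyrobp (189 ± 27.7) led and did not differ beyond their spread. C1qb followed at 85.0 ± 21.2. Mrc1 (26.1 ± 5.03), Csf1r (24.4 ± 6.09), C1qa (22 ± 7.68), C1qc (21.6 ± 5.15) and Adgre1 (18.5 ± 8.90) formed a run of neighbors within their spread. Cx3cr1 (9.55 ± 2.5) was next, also within the spread of Adgre1, and Fcgr1 (2.39 ± 1.25) was the lowest.

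In GPI testes the order per kilobase was different. Tyrobp (77.9 ± 45.4) and Lyz2 (70.9 ± 32.0) were again at the top and within their spread (SD, n = 5 for all values). C1qb (22.8 ± 8.79), Adgre1 (15.8 ± 7.71) and Mrc1 (14 ± 3.14) followed as neighbors within their spread, so that Adgre1 moved from the eighth to the fourth place. C1qc (5.42 ± 3.03) and Csf1r (5.24 ± 1.53) came next, and Cx3cr1 (1.84 ± 0.934), C1qa (1.59 ± 1.45) and Fcgr1 (0.484 ± 0.530) were the lowest. Of the summed counts of the 10 genes, the share of Csf1r went from 13.3% ± 3.07 to 8.08% ± 2.27. That of C1qa went from 2.52% ± 0.749 to 0.514% ± 0.542. Each was lower with GPI in 5 of 5 mice and without overlap. For Csf1r the groups nearly met, at 10.232% in the lowest vehicle and 10.222% in the highest GPI library. The C1qa share rests on 0 to 3 counts per GPI library. The share of Mrc1 went from 15.6% ± 2.39 to 23.6% ± 4.62, higher in 4 of 5 mice, and that of Lyz2 from 31.5% ± 6.63 to 27.6% ± 7.86, with overlapping ranges for both. Shares of 1 sum depend on each other, and their differences were not tested.

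The mice differed in how far the genes fell. The median log2 ratio of the 9 tested genes was -1.47, -1.31, -1.45, -2.44 and -1.91 in mice 1 to 5, so that it was deepest in mouse 4. With or without the prior count of 2, the gene with the lowest ratio was Cx3cr1 in mouse 1 and C1qa in mice 3 and 5. In mice 2 and 4 the lowest gene depended on the prior count, being Cx3cr1 and Tyrobp with it and C1qa and C1qc without it. Among 11103 other tested genes with a mean of at least 50 normalized counts per library, the 5 whose ratios over the 5 mice lay nearest to these medians were Adap2, Vash1, Postn, Gdpd5 and Pde2a. Their root mean square differences from the medians were 0.211, 0.228, 0.236, 0.246 and 0.253 on the log2 scale. These 5 genes were picked for closeness, so that their falls follow from the choice. The 9 macrophage genes themselves lay farther from the medians, from 0.331 for C1qc to 1.55 for Adgre1. Adap2, which encodes a phosphoinositide-binding ArfGAP, fell from 213 ± 53.5 to 60.6 ± 7.31 normalized counts (SD, n = 5 each), with a log2 fold change of -1.78 ± 0.17. Vash1 encodes the endothelial protein vasohibin-1 and Postn the matrix protein periostin, with log2 fold changes of -1.64 ± 0.12 and -1.66 ± 0.13.

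Of 11 genes of myeloid transcription factors 9 were tested, and 3 were called lower and 2 higher, where 11.9% and 11.1% of all tested genes were, with a median of -0.49 against 0.02 over all tested genes. Spi1, which encodes PU.1, was too low to test, with 10, 7, 6, 4 and 11 counts in the vehicle libraries and 3, 3, 2, 2 and 1 in the GPI libraries. The sum fell from 38 to 11 counts, 28.4% of vehicle after scaling (exact 95% interval for counting error 13.1% to 56.7%), and GPI was lower in 5 of 5 mice after scaling. Irf8 was not called (-0.49 ± 0.26). Ikzf1, the gene of the blood lineage factor Ikaros, had 73.0, 48.9, 93.8, 52.8 and 139 normalized counts with vehicle and 12.3, 24.3, 9.51, 3.16 and 12 with GPI, without overlap. Ikzf1 and Mef2c, a factor also made in endothelium, were called lower (-2.73 ± 0.39, adjusted p = 0.000180, and -0.55 ± 0.08, adjusted p = 0.000129, edgeR's quasi-likelihood test, Benjamini-Hochberg adjusted; each lower in 5 of 5 mice), as was Runx1 (-1.11 ± 0.16). Maf (0.49 ± 0.09) and Cebpa (1.45 ± 0.30), which are made outside the blood lineage too, were called higher.

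Among 16 further surface and secreted genes of resident macrophages, 8 were tested and 3 were called lower, where 11.9% of all tested genes were. The median was -0.67 against 0.02 over all tested genes. Without the filter 5 were called lower, and with at least 10 counts in every library 1, Cd68, since Pf4 and Aif1 were then not tested. Pf4, which encodes a chemokine of platelets and of some fetal macrophages, had 29.9, 23.9, 17.9, 65.7 and 22.9 normalized counts with vehicle and 4.48, 1.62, 9.51, 5.26 and 3.27 with GPI, without overlap. Aif1, the gene of the actin-binding protein IBA1, had 47.6, 27.4, 25.7, 47.8 and 22.1 with vehicle and 11.2, 6.49, 5.71, 0 and 5.45 with GPI, also without overlap. The log2 fold changes were -2.66 ± 0.49, adjusted p = 0.00130 for Pf4 and -2.56 ± 0.54, adjusted p = 0.00324 for Aif1 (edgeR's quasi-likelihood test, Benjamini-Hochberg adjusted; each lower in 5 of 5 mice). Cd68, a lysosomal glycoprotein gene, fell by 0.76 ± 0.19 on the log2 scale and its groups overlapped; its call was lost without the replicate block. Lyve1 (-1.88 ± 0.65) and Folr2 (0.73 ± 0.44), markers of perivascular macrophages, were not called by edgeR or limma-voom; Lyve1 was called lower by DESeq2, with library totals alone, without the filter and without mouse 3. Timd4, the gene of a phosphatidylserine receptor, was set aside by the filter with 19, 7, 23, 33 and 27 counts in the vehicle libraries and 3, 4, 5, 1 and 0 in the GPI libraries, which did not overlap after scaling, and it was called lower without the filter and without mouse 2. Cbr2, a marker of some resident macrophages, had 0 counts in all 10 libraries. The most abundant gene of this group per kilobase, Csf2ra, was not called (0.21 ± 0.13).

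Of 8 genes used as microglia markers 6 were tested, and 1 was called lower and 1 higher, where 11.9% and 11.1% of all tested genes were, with a median of -0.07 against 0.02 over all tested genes. P2ry12 was too low to test, with 24, 14, 12, 5 and 8 counts with vehicle and 3, 3, 4, 4 and 2 with GPI. P2ry13, a nucleotide receptor gene beside it, was called lower (-1.53 ± 0.51, adjusted p = 0.0436, edgeR's quasi-likelihood test, Benjamini-Hochberg adjusted; lower in 5 of 5 mice). Both lie inside Med12l on the opposite strand, from which counts without strand do not separate them. The call of P2ry13 was lost without mouse 1, without mouse 2 and without mouse 4, where 0 genes of the group were called lower, and it was not tested with at least 10 counts in every library. The number called lower was 3 without mouse 5, and 2 without the filter or with library totals alone. Tmem119, made by bone and mesenchymal cells as well, was higher with GPI without overlap (0.89 ± 0.14, adjusted p = 0.000484, edgeR's quasi-likelihood test, Benjamini-Hochberg adjusted; higher in 5 of 5 mice).

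Of 16 genes for the engulfment of dying cells and for scavenging, 15 were tested, and 5 were called lower and 2 higher, where 11.9% and 11.1% of all tested genes were, with a median of -0.29 against 0.02 over all tested genes. With at least 10 counts in every library 3 were called lower, since Stab1 and Msr1 were then not tested. The receptor kinase genes Mertk and Axl, which act in many cell types, were not called (0.07 ± 0.11 and 0.03 ± 0.07). Stab1, a scavenger receptor gene of macrophages and of sinusoidal endothelium, had 165, 132, 198, 218 and 158 normalized counts with vehicle and 34.7, 19.5, 14.3, 12.6 and 6.54 with GPI. Msr1, the macrophage scavenger receptor gene, had 60.9, 43.0, 54.7, 60.8 and 41.1 with vehicle and 13.4, 13, 14.3, 4.21 and 6.54 with GPI. For both genes every GPI testis was below every vehicle testis. Stab1 and Mfge8, whose product bridges dying cells to integrins, had log2 fold changes of -3.36 ± 0.30, adjusted p = 2.63e-06, and -1.05 ± 0.09, adjusted p = 2.92e-06 (edgeR's quasi-likelihood test, Benjamini-Hochberg adjusted; each lower in 5 of 5 mice), and Msr1 of -2.36 ± 0.36. Pros1 (-0.30 ± 0.10) and Dock1 (-0.32 ± 0.07) were called lower by small amounts, and the call of Pros1 was lost without the filter and without mouse 2, 3, 4 or 5. Gas6, which encodes a ligand of MERTK and AXL, and the cholesterol transporter gene Abca1 were called higher (0.67 ± 0.09 and 0.47 ± 0.07).

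All 14 genes of lysosomal proteins that are abundant in macrophages were tested, and 3 were called lower and 4 higher, where 11.9% and 11.1% of all tested genes were, with a median of -0.04 against 0.02 over all tested genes. Ctss, the gene of cathepsin S, a protease largely of antigen-presenting cells, had 77.5, 31.0, 43.5, 62.8 and 54.1 normalized counts with vehicle and 32.5, 25.1, 19, 22.1 and 9.81 with GPI. The GPI testis of mouse 1 was above the lowest vehicle testis, so that the groups overlapped, and the log2 fold change was -1.31 ± 0.33, adjusted p = 0.0101 (edgeR's quasi-likelihood test, Benjamini-Hochberg adjusted; lower in 5 of 5 mice). Ctsc and Grn were also called lower (-0.70 ± 0.17 and -0.34 ± 0.10), Grn not without mouse 1, 4 or 5. Ctsb, the gene of cathepsin B, was not called (-0.09 ± 0.08), and Cd63 (0.41 ± 0.07) and Npc2 (0.44 ± 0.08), which encode a membrane protein and a cholesterol carrier, were called higher. Psap and Hexa were the others called higher, and 2 genes were called higher without mouse 3 or without mouse 4. With library totals alone 4 were called lower and 2 higher, so that the larger number was then the lower one.

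Genes of monocytes, antigen presentation and macrophage cytokines were mostly scarce. Of 8 monocyte genes 1 was tested, Plac8, and it was not called by edgeR, DESeq2 or limma-voom (0.39 ± 0.38; unadjusted p 0.318). Without the filter 2 monocyte genes were called lower, Ccr2 and Chil3. Ccr2, the receptor gene by which monocytes leave the blood, had 21, 8, 17, 0 and 16 counts in the vehicle libraries and 1, 7, 0, 0 and 0 in the GPI libraries, whereas Ly6c2, a monocyte surface gene, had 1, 3, 8, 2 and 10 with vehicle and 0, 0, 1, 0 and 0 with GPI. Of 9 genes of MHC class II presentation 2 were tested and 1 was called lower, where 11.9% of all tested genes were. It was H2-Ab1 (-1.90 ± 0.53, adjusted p = 0.0185, edgeR's quasi-likelihood test, Benjamini-Hochberg adjusted, lower in 4 of 5 mice). Its counts were 164, 89, 127, 126 and 158 with vehicle and 282, 44, 8, 14 and 15 with GPI, so that mouse 1 went the other way. This call was lost without mouse 2, 3, 4 or 5, without the replicate block and with limma-voom, and with at least 10 counts in every library the gene was not tested. Ciita, the other tested gene, was not called (-0.04 ± 0.27), and H2-Aa had 4, 4, 0, 9 and 12 counts with vehicle and 4, 6, 18, 4 and 3 with GPI. Of 16 cytokine and activation genes 5 were tested and 1 was called lower, where 11.9% of all tested genes were, with a median of -0.69 against 0.02. It was Tgfb1, made by many cell types, which went from 388 ± 37.0 to 111 ± 15.4 normalized counts (SD, n = 5 each; log2 fold change -1.81 ± 0.14, adjusted p = 6.16e-07, edgeR's quasi-likelihood test, Benjamini-Hochberg adjusted; lower in 5 of 5 mice); without mouse 3 and without the filter Nos2 was called lower too. Ccl3 had 2, 0, 1, 5 and 5 counts with vehicle and 4, 5, 9, 6 and 6 with GPI. Ccl2 was not called (-1.39 ± 0.57), and Il1b, Il6, Ccl4 and Ccl7 had at most 6 counts in any library.

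**Figure D3:**
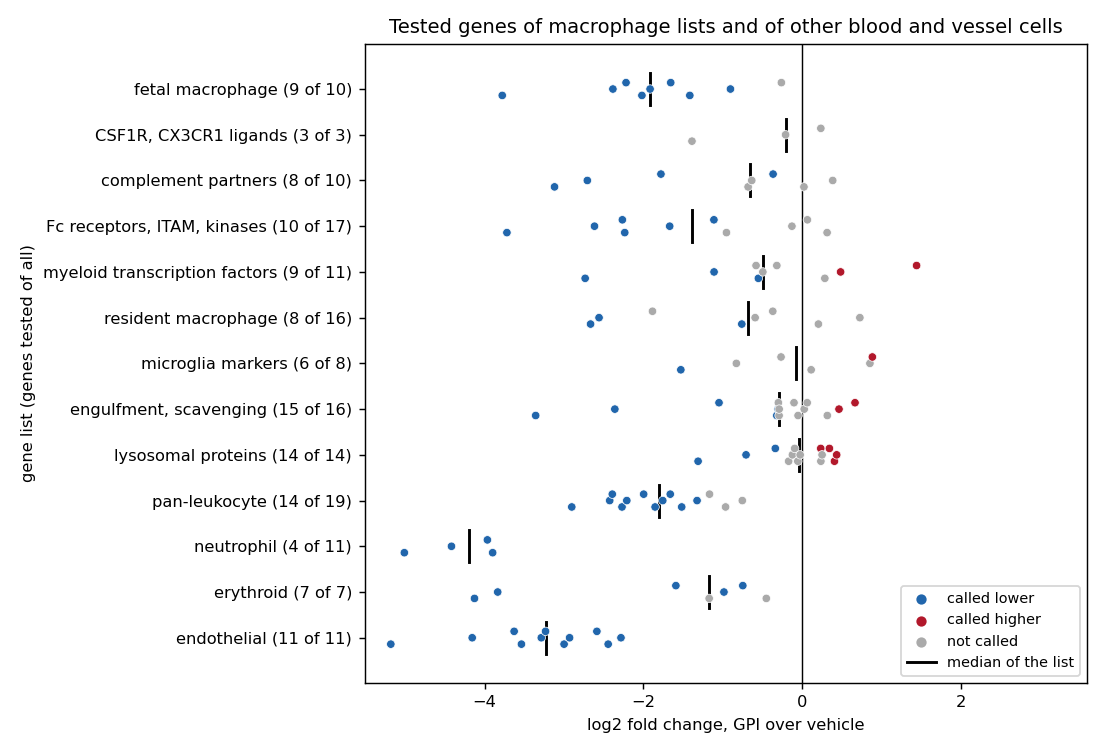
Log2 fold change of GPI over vehicle (horizontal axis) for each tested gene of 13 gene lists (vertical axis, with the number tested of all). Each point is 1 gene, colored by its call at an FDR of 0.05, and black bars are medians; the median of the fetal macrophage genes is -1.91 and that of the endothelial genes -3.23.

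Of 19 pan-leukocyte genes 14 were tested and 11 were called lower, where 11.9% of all tested genes were. The median was -1.80 against 0.02 over all tested genes. With at least 10 counts in every library 6 were called, since the other 5 were then not tested. Ptprc, the gene of CD45, had 214, 117, 141, 147 and 233 normalized counts with vehicle and 62.7, 51.1, 66.6, 17.9 and 41.4 with GPI, without overlap, and fell by 1.85 ± 0.26 on the log2 scale (lower in 5 of 5 mice, adjusted p = 0.000145, edgeR's quasi-likelihood test, Benjamini-Hochberg adjusted). The summed level of the 19 genes was 1846, 1383, 1359.8, 1357 and 1904 with vehicle and 509, 465, 408, 247 and 302 with GPI, and the GPI mean was 24.6% of vehicle. Laptm5 and Lcp1 were called lower (-1.32 ± 0.33 and -2.90 ± 0.20), Laptm5 not without mouse 4. The most abundant gene per kilobase was Arhgdib (-2.27 ± 0.17), and none of the 19 was at 0 in all libraries. Macrophages make many of these genes, so that this list is not independent of the 10 macrophage genes. The 10 lymphoid genes were all too low to test, and Cd3e, Cd3g, Pax5, Nkg7 and Ncr1 had 0 counts in all 10 libraries. Of the mast cell, dendritic cell and megakaryocyte genes, 1 of 7, 2 of 7 and 2 of 6 were tested. Of these 5, Hdc (-0.45 ± 0.31), Batf3 (-1.11 ± 0.42), Zbtb46 (-0.13 ± 0.13), Itga2b (0.17 ± 0.57) and Gp1ba (-0.38 ± 0.41), 0 were called by edgeR, DESeq2 or limma-voom, and 1, Batf3, had an unadjusted p under 0.05. Among all 13941 tested genes these numbers were 3198 by edgeR and 4742, so that 5 genes do not set these cell types apart. Cpa3, Cma1, Flt3, Itgax and Gp9 were too low to test. In the edgeR fit without the filter, the dendritic cell gene Clec9a and the megakaryocyte gene Ppbp were called lower.

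The 11 endothelial genes were all tested and all called lower, where 11.9% of all tested genes were, with a median of -3.23 against 0.02. Their summed level was 10138, 10305, 9941, 11259 and 10405 normalized counts with vehicle and 1237, 1462, 961, 768 and 911 with GPI, a GPI mean of 10.3% of vehicle. No GPI testis came near a vehicle testis. Cdh5, the gene of VE-cadherin and the most abundant of them per kilobase with vehicle, fell by 3.63 ± 0.12 on the log2 scale (lower in 5 of 5 mice, adjusted p = 3.76e-10, edgeR's quasi-likelihood test, Benjamini-Hochberg adjusted), as did Pecam1 by 4.16 ± 0.15 and Flt1 by 5.18 ± 0.18, and none of the 11 was at 0. Of 7 erythroid genes, all tested, 5 were called lower, where 11.9% of all tested genes were, with a median of -1.17 against 0.02. Their sums were 2009.8, 2622, 5026, 4667 and 3875 with vehicle and 1844, 984, 943, 1057 and 2473 with GPI, which overlapped, and mouse 1 was nearly equal between treatments. Hbb-y was the most abundant per kilobase (-0.98 ± 0.23), and the adult globin genes Hbb-bt and Hbb-bs had log2 fold changes of -3.84 ± 0.31 and -4.13 ± 0.34, each lower in 5 of 5 mice and without overlap. Hba-a1 was called lower (-1.59 ± 0.33) and Hba-x was not (-0.45 ± 0.28), except without mouse 1. The part of these cell types in the change of the macrophage genes was not tested.

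Cells of the testis proper moved in different directions. Of 6 germ cell genes 4 were tested and called lower, where 11.9% of all tested genes were. The 4 include Dazl (-4.62 ± 0.34), Sall4 and Dppa3, which passed the filter through their vehicle counts. With at least 10 counts in every library Ddx4 (-2.72 ± 0.45) alone was tested and called. The summed level of the 6 genes was 948, 2040.5, 1209, 1661 and 630.0 normalized counts with vehicle and 126, 101, 27.6, 33.7 and 97.0 with GPI. The most abundant per kilobase with vehicle was Dppa3 (-5.20 ± 0.36). All 6 Sertoli cell genes were tested and 4 were called higher, where 11.1% of all tested genes were (median 0.54 against 0.02). The number called was 2 without mouse 3, as also without the replicate block. Their sums were 2842, 4319.6, 3239.7, 4225 and 4511 with vehicle and 2991, 5773, 5809, 7589.6 and 5715 with GPI, which overlapped. Sox9 (0.59 ± 0.09) and Dhh (0.92 ± 0.15) were called higher, as was Aard, the most abundant per kilobase (0.54 ± 0.12), and Amh was not called (0.08 ± 0.22). Of 5 fetal Leydig cell genes 4 were tested and called higher, where 11.1% of all tested genes were (median 2.32 against 0.02). The sums of the 5 genes were 1279, 2700.3, 3979, 1991 and 5302 with vehicle and 9635, 10120.5, 15753, 18093 and 12932 with GPI, which did not overlap. Hsd3b1 was the most abundant per kilobase (1.75 ± 0.20), and Star, Cyp11a1 and Cyp17a1 were called higher too (0.79 ± 0.12, 2.90 ± 0.27 and 3.90 ± 0.29). None of these genes was at 0 in all libraries. Levels of the macrophage genes are relative to all counts of a library, and the part of these shifts in them was not tested.

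**Figure D4:**
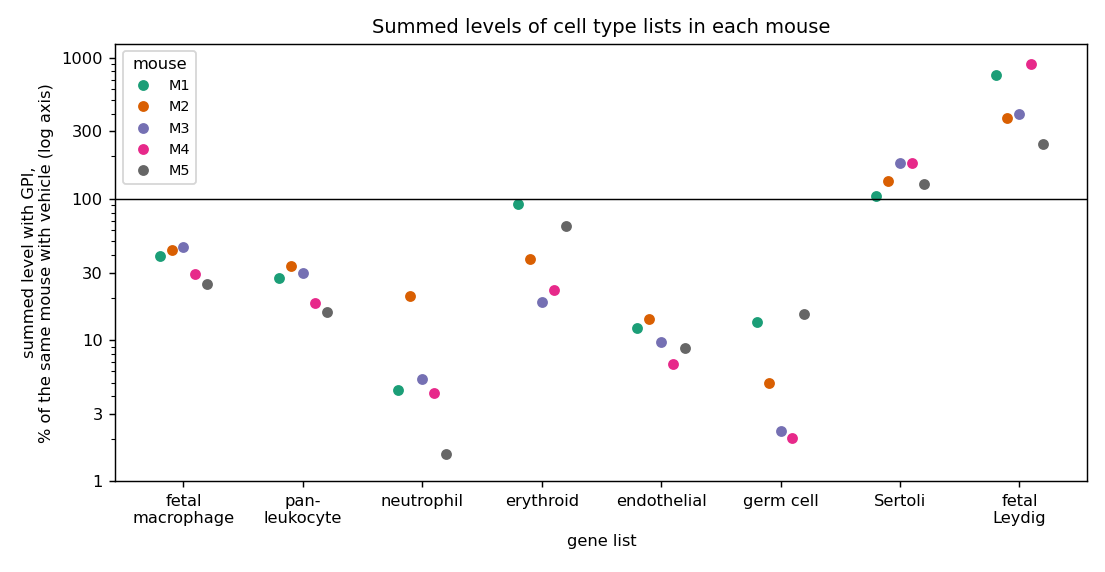
Summed normalized counts of 8 gene lists with GPI as a percentage of the vehicle testis of the same mouse (vertical log axis; horizontal axis, gene list). Each point is 1 mouse and the line marks 100%; the fetal macrophage sum is between 25.1% and 46.0%, and the endothelial sum between 6.82% and 14.2%.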

How the data were processed

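RNA was extracted from each cultured gonad, and per the labels libraries were made with the Ovation RNA-Seq System V2 and Celero EZ DNA-Seq kits. According to the submitters' processing notes, the authors used STAR 2.5, featureCounts and Subread 1.5.0-p1 with mm10. They deposited raw counts per gene, not normalized, for 24470 entries and 10 libraries, which were used unchanged; no further columns (0) held values of samples. Amplified counts are not independent molecules, so the errors of the fits come from the spread between mice. The exact intervals for counting error and the limit for a count of 0 treat counts as independent and leave out that spread. They are therefore lower bounds on the error.

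The filterByExpr filter, with a count of 10 and a total of 15 as minimum, kept 13941 genes and dropped 10529. Counts were scaled by TMM and tested with edgeR 4.0.16 in R 4.3.3, by its quasi-likelihood test; p-values were adjusted after Benjamini-Hochberg over the 13941 genes, with calls at an FDR of 0.05. The design held mouse and treatment. Gonads with the same number come from the same embryo per the labels; deviations from the group means correlated by -0.0398 to 0.155 within a mouse. A standard error is the size of the log2 fold change over the square root of F. Ratios in single mice used a prior count of 2. Chi-square per degree of freedom between libraries of a group was 6.42 to 27.8, so none were duplicates. Exon lengths for levels per kilobase came from GENCODE M21, another annotation than the RefSeq models of the counts, so that close ranks per kilobase are uncertain. Counts without strand do not separate overlapping genes, such as Stab1 from Nt5dc2, Ctsb from Fdft1 and Dock1 from Insyn2a.

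The macrophage genes and the gene lists were chosen with earlier results of these data known, and 3 genes of the planned lists are not reported here. Named genes are the 10 macrophage genes, the first 2 genes of each other list, its 2 tested genes with the smallest p, and the 5 genes nearest in ratios; further members of a list are named where its calls are spelled out, and these were chosen after their values were seen. The fitting was tested on simulated data. Alternatives were DESeq2 1.42.0, limma 3.58.1 with voom, no replicate block, DESeq2 size factors, library totals, no filter, at least 10 counts in every library, and each mouse left out in turn.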

Additional observations from a re-analysis of the deposited data

Results flagged for a closer look

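Single libraries stood apart from the other 4 of their group in 7 of 66 groups examined, by Dixon's criterion (gap over range above 0.71), which chance meets in about 1 of 20 groups. Tyrobp was low in the vehicle testis of mouse 2, at 79.95 normalized counts against 108.5 for the next library. The summed level of the 10 macrophage genes was high in the vehicle testis of mouse 1, at 1086 against 875.2 for the next. The sum of the Fc receptor and ITAM genes was low in the GPI testis of mouse 4, at 600.9 against 784.0, and the sum of the neutrophil genes was high in the GPI testis of mouse 2, at 171.1 against 53.26. Antigen presentation genes summed to 396.2 in the GPI testis of mouse 1 and to 115.9 in the next, cytokine genes to 485.9 in the vehicle testis of mouse 1 and to 531.4 in the next, and mast cell genes to 83.03 in the vehicle testis of mouse 5 and to 43.16 in the next. Over all genes, the GPI library of mouse 1 differed most from the others of its group, by a chi-square per degree of freedom of 21.74 to 27.81, against 7.483 to 11.002 among the other 4. With mouse 1 left out, 8 macrophage genes were called lower as before, and the same number was called with any other mouse left out.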

How the results depend on the processing

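Under 12 alternatives, each of the 9 tested macrophage genes kept its direction and its side of the threshold wherever it was tested, in 105 of 105 cases; 0 were reversed. Adgre1 ranged from -0.37 to -0.09 on the log2 scale and was never called. The median of the tested macrophage genes ranged from -2.10 to -1.54, and 8 were called lower in every alternative but one: with at least 10 counts in every library, 5 were called, since C1qa, C1qc and Cx3cr1 were then not tested. Without the replicate block that pairs gonads by mouse, 8 macrophage genes were called lower with a median of -1.89, and 1610 genes of all were called lower. With each mouse left out in turn, between 969 and 1430 genes were called higher and between 1287 and 1686 lower. With library totals alone, 1972 genes were called lower and 1238 higher, against 1654 and 1544 with TMM. Counts of calls in the gene lists moved by over 1.5 times in 34 of 528 cases, among them 6 pan-leukocyte genes called lower in place of 11 with at least 10 counts in every library. Apart from the lists of antigen presentation and Sertoli genes, dropping the block moved no list by that much. Depth limits Fcgr1, Spi1 and Timd4, and the size of the C1qa change, which rest on a handful of counts per GPI library.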
